A study of Mus musculus with 9 samples.

Results

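The cytotoxic lymphocyte and natural killer (NK) cell genes described here are 10 genes, Nkg7, Klrd1, Gzma, Gzmb, Prf1, Ncr1, Eomes, Tbx21, Cd96 and Ccl5, each found by its name on 1 row of a deposited table of 41096 mouse genes. They were chosen by function, as genes of cytotoxic granules, NK receptors, an effector chemokine and effector transcription factors. RNA was sequenced from cells washed out of the peritoneal cavity in 9 samples. The 5 control samples came from APOE-/- mice that received citrate buffer. The 4 diabetic samples came from APOE-/- mice that received streptozotocin, a toxin of the insulin-making beta cells, at 40 mg/kg. Injections were given on 5 consecutive days from 8 weeks of age, and both groups, all without Apoe, were then kept for 8 weeks on a western diet. Both were given 1.5 mL of thioglycollate at 3%, which irritates the cavity and recruits leukocytes, and the cavity was washed with 10 mL of saline 3 days later. The labels name no sort and no adherence step, and whether each sample came from 1 mouse or from several is not stated. The p-values therefore speak only to the spread among these 9 samples. The series has no wild-type mice and no cavity without the irritant.

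NK cells and cytotoxic CD8 T cells kill target cells by releasing granules at the contact site. Perforin (Prf1) opens the target membrane, and granzymes (Gzma, Gzmb) enter and cut proteins inside. NK cells read their targets through germline-encoded receptors such as NKp46 (Ncr1), while CD8 T cells use the T cell receptor. The T-box factors T-bet (Tbx21) and eomesodermin (Eomes) drive the effector programme in both. Several of these genes are therefore shared between the lineages, and Ncr1 is the member most tied to NK cells and related innate lymphoid cells.

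Levels are given as FPKM, fragments per kilobase of gene, with the scaling the authors deposited, so they are per length. Comparisons between genes are approximate, since reads shared between similar genes are uncertain. Reads in genes were above the scaling divisor in control 2 and below it in control 1, so that divisor was not the total of reads in genes. Each library held 14156421 to 16169060 reads in genes. The labelled cell type is the macrophage, and its markers were high in every sample, with Adgre1 at 185 to 310 FPKM and Csf1r at 189 to 356 FPKM. Itgam, which encodes CD11b, was listed at only 0.058 to 0.246 FPKM. T cell transcripts were present too and rose in the diabetic samples. Of 12 T cell markers 11 rose, and their summed level was 123 to 177 FPKM in control and 223 to 668 FPKM in diabetic samples. Control 4 was the highest control sample for 7 of the 10 members, and diabetic 2 the lowest diabetic sample for 6. How often these libraries held those places over all tested genes was not counted. Where leaving out control 4 or diabetic 2 ended a member's call or moved its value by over 1.5 times, the value without it is given.

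Of the 10 members, 4 rose in diabetic samples: Cd96, Nkg7, Klrd1 and Ccl5. None fell. The 2 granzymes, perforin, Ncr1, Tbx21 and Eomes had positive log2 fold changes that did not pass. A gene passed at an adjusted p below 0.05 in limma across all 11193 tested genes, and 2.68% of those genes rose by this rule. Every diabetic sample lay above every control sample for the same 4 members, a pattern that 4.82% of all tested genes showed. The median log2 fold change was 0.64 over the 10 members and -0.013 over all tested genes. These counts describe genes picked with earlier results of the data known. The count of 4 became 2 without diabetic 2 (Cd96 and Ccl5) and 3 without diabetic 4 (Nkg7 no longer passed). All 10 members passed the filter on low values (4 or more samples reaching an FPKM of 1), but Cd96 reached it in 2 control and 4 diabetic samples and Eomes in 1 control and 3 diabetic samples. With no such filter the same 4 members passed. In bulk RNA, more cells of a type and more RNA per cell cannot be told apart.

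**Figure D1:**
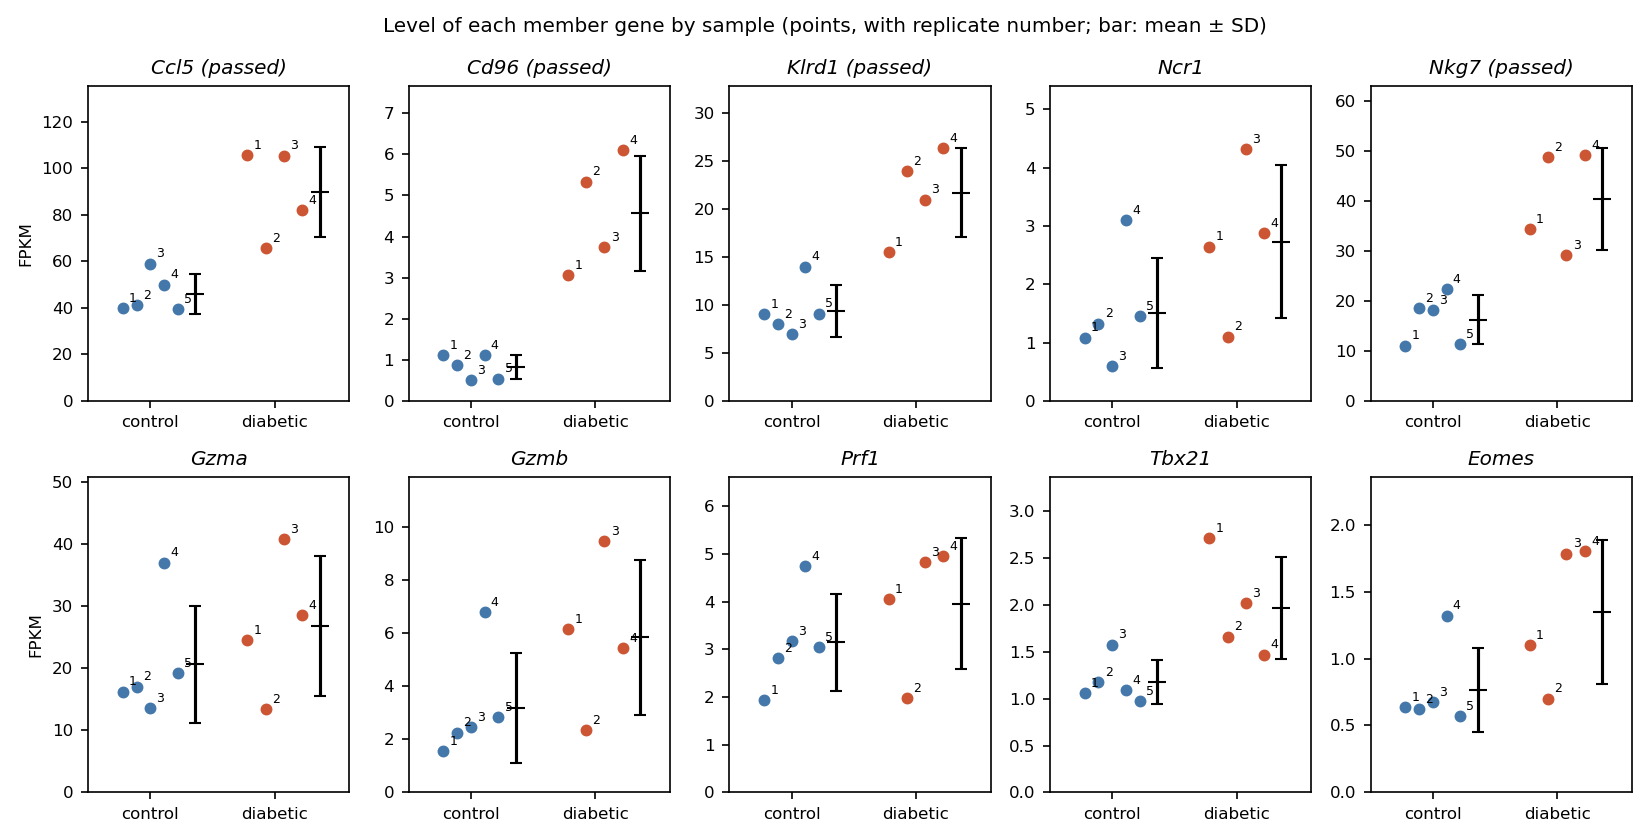
FPKM (vertical axis, linear from 0) of each member in the 5 control and 4 diabetic samples; points carry the replicate number and bars give the mean ± SD. Groups are separated for Ccl5, Cd96, Klrd1 and Nkg7, while control 4 stands high and diabetic 2 low for Gzma, Gzmb, Prf1, Ncr1 and Eomes.

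Of the 3 receptors, 2 passed. Cd96, an immunoglobulin-family receptor of T and NK cells that binds the adhesion molecule CD155 (chromosome 16, 45864899 to 45949040, minus strand, identifier MGP_C57BL6NJ_G0023274), had 1.12, 0.871, 0.513, 1.11 and 0.540 FPKM in control 1 to 5. Its values in diabetic 1 to 4 were 3.06, 5.34, 3.74 and 6.11 FPKM. The lowest diabetic sample was well above the highest control sample, and diabetic 4 and 2 were the highest. The means were 0.831 ± 0.295 (SD, n = 5) and 4.56 ± 1.40 FPKM (SD, n = 4), a 5.49-fold ratio of means. The log2 fold change on log2(FPKM + 1) was 1.58 (SE 0.19, adjusted p = 0.0033), the largest of the 10, and that scale understates a change at such low levels. It rests on 135 reads in the control libraries and 602 in the diabetic ones. Cd96 passed whichever of the 9 samples was left out.

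Klrd1 encodes CD94, the chain that pairs with NKG2 proteins to form receptors on NK cells and some CD8 T cells (chromosome 6, 136762984 to 136771260, plus strand, identifier MGP_C57BL6NJ_G0031790). It had 9.05, 8.01, 6.94, 14.0 and 9.11 FPKM in control 1 to 5 and 15.5, 24.0, 21.0 and 26.4 FPKM in diabetic 1 to 4. Control 4 came close to diabetic 1, but the groups did not overlap. The means were 9.42 ± 2.71 (SD, n = 5) and 21.7 ± 4.67 FPKM (SD, n = 4), a log2 fold change of 1.13 (SE 0.19, adjusted p = 0.013). Without diabetic 2 it was 1.08 and did not pass (adjusted p = 0.051). Klrc1, which encodes the CD94 partner NKG2A, was listed at 0 to 0.187 FPKM, from 10 reads in all control libraries and 9 in all diabetic ones.

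Ncr1 encodes NKp46, the activating receptor used to define NK cells (chromosome 7, 1265620 to 1274762, plus strand, identifier MGP_C57BL6NJ_G0031985). Its control values were 1.09, 1.32, 0.591, 3.10 and 1.45 FPKM, and its diabetic values were 2.64, 1.10, 4.31 and 2.87 FPKM. The groups overlapped: control 4 lay above diabetic 1, 2 and 4, and diabetic 2 lay among the other control samples. The log2 fold change of 0.57 (SE 0.30) did not pass (adjusted p = 0.30). It was 0.76 without control 4 and 0.82 without diabetic 2 (adjusted p = 0.14 and 0.17), and 0.37 without diabetic 3 (adjusted p = 0.47). Only 13 to 95 reads per sample stand behind this gene. The ratio of Cd96 to Ncr1 FPKM was 0.358 to 1.03 in control samples, 4.85 in diabetic 2, 2.13 in diabetic 4, 1.16 in diabetic 1 and 0.868 in diabetic 3. The difference between these genes was not tested.

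Of the 4 granule genes, 1 passed. Nkg7, a granule membrane protein of NK and cytotoxic T cells (chromosome 7, 45644739 to 45645915, plus strand, identifier MGP_C57BL6NJ_G0032597), had 11.1, 18.5, 18.2, 22.4 and 11.3 FPKM in control 1 to 5. In diabetic 1 to 4 it had 34.4, 48.8, 29.2 and 49.2 FPKM. Diabetic 2 and 4 were the highest and the groups did not overlap. The log2 fold change was 1.27 (SE 0.23, adjusted p = 0.018), with means of 16.3 ± 4.94 (SD, n = 5) and 40.4 ± 10.2 FPKM (SD, n = 4). It did not pass without diabetic 2 (adjusted p = 0.060) or without diabetic 4 (adjusted p = 0.065), where its log2 fold change was still 1.17.

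Gzma, the tryptase-like granzyme A (chromosome 13, 119139748 to 119146900, minus strand, identifier MGP_C57BL6NJ_G0021334), was the second most abundant member in control samples. Its control values were 16.2, 17.0, 13.6, 37.0 and 19.2 FPKM in samples 1 to 5, against 24.5, 13.4, 40.8 and 28.5 FPKM in diabetic 1 to 4. The highest control sample exceeded 3 of the 4 diabetic samples, and diabetic 2 was the lowest of all 9. The means were 20.6 ± 9.39 (SD, n = 5) and 26.8 ± 11.3 FPKM (SD, n = 4), and the log2 fold change of 0.35 (SE 0.34) had an adjusted p = 0.58. Single libraries moved this value from 0.13 without diabetic 3 to 0.64 without diabetic 2, with 0.58 without control 4, and the gene passed under none of the 17 alternatives.

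Gzmb, granzyme B, which cuts after aspartate and starts apoptosis (chromosome 14, 52857646 to 52861050, minus strand, identifier MGP_C57BL6NJ_G0021793), was less abundant than Gzma in every sample. It had 1.54, 2.25, 2.47, 6.78 and 2.85 FPKM in control 1 to 5 and 6.15, 2.34, 9.46 and 5.43 FPKM in diabetic 1 to 4. Diabetic 3 was the highest and control 4 the second highest of the 9 samples. Its log2 fold change was 0.71 (SE 0.37, adjusted p = 0.29), and it was 1.02 without diabetic 2, 0.97 without control 4 and 0.47 without diabetic 3 (adjusted p = 0.17, 0.12 and 0.47). The ratio of Gzmb to Gzma was 0.095 to 0.183 in control and 0.174 to 0.251 in diabetic samples. The granzyme genes next to Gzmb on chromosome 14 are close copies, so reads shared between them are uncertain. Of these, Gzmc had 7 reads in all control libraries and 10 in all diabetic ones, and Gzmd, Gzme, Gzmf and Gzmn had 0.

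Prf1, perforin (chromosome 10, 62786830 to 62794028, plus strand, identifier MGP_C57BL6NJ_G0017673), had the smallest log2 fold change of the 10 members. Its control values were 1.94, 2.81, 3.17, 4.75 and 3.05 FPKM and its diabetic values 4.06, 1.98, 4.83 and 4.96 FPKM. Diabetic 3 and 4 were just above control 4, and diabetic 2 was next to the lowest control sample. The means were 3.15 ± 1.02 (SD, n = 5) and 3.96 ± 1.38 FPKM (SD, n = 4), and the log2 fold change of 0.24 (SE 0.23) did not pass (adjusted p = 0.58). It ranged from 0.13 without control 1 to 0.47 without diabetic 2, and was 0.37 without control 4.

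Ccl5, the chemokine RANTES, was the most abundant member. It is made by memory and effector CD8 T cells and NK cells and also by activated macrophages (chromosome 11, 87455568 to 87460312, minus strand, identifier MGP_C57BL6NJ_G0019244). It had 39.8, 41.2, 59.0, 50.001 and 39.3 FPKM in control 1 to 5 and 106, 65.7, 105 and 82.1 FPKM in diabetic 1 to 4. Diabetic 2 was the lowest diabetic sample and still lay above control 3, the highest control sample. The means were 45.9 ± 8.54 (SD, n = 5) and 89.7 ± 19.4 FPKM (SD, n = 4), a 1.96-fold ratio. Its log2 fold change was 0.94 (SE 0.17, adjusted p = 0.017). Ccl5 passed whichever sample was left out, at adjusted p from 0.017 to 0.0498. Of its receptors, Ccr1 had a log2 fold change of 0.01, and Ccr3, an eosinophil receptor, averaged 18.5 ± 8.80 FPKM in control and 6.50 ± 2.42 FPKM in diabetic samples (SD), with a log2 fold change of -1.30 (adjusted p = 0.090).

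By control mean, the T-box factors were the least abundant members beside Cd96. Tbx21 (chromosome 11, 102563213 to 102586071, minus strand, identifier MGP_C57BL6NJ_G0019417) had 1.06, 1.17, 1.58, 1.09 and 0.973 FPKM in control 1 to 5 and 2.71, 1.66, 2.02 and 1.47 FPKM in diabetic 1 to 4. Diabetic 1, 2 and 3 lay above every control sample and diabetic 4 lay below control 3. The log2 fold change was 0.44 (SE 0.14) and missed the threshold over all tested genes (adjusted p = 0.11), while an exact permutation test of Tbx21 alone, two-sided, gave p = 0.024. It passed with array weights (adjusted p = 0.039). For comparison, the exact test gave 0.0079, the smallest value that 5 against 4 samples allow, for Cd96, Nkg7 and Ccl5, and 0.016 for Klrd1. The same test gave 0.14 for Gzmb, 0.15 for Ncr1, 0.36 for Prf1 and 0.38 for Gzma. Eomes (chromosome 9, 124468157 to 124476074, plus strand, identifier MGP_C57BL6NJ_G0035904) had 0.635, 0.621, 0.674, 1.32 and 0.568 FPKM in control and 1.10, 0.701, 1.78 and 1.81 FPKM in diabetic samples. Control 4 again lay above the other 4 control samples and diabetic 2 fell among them. Its log2 fold change was 0.40 (SE 0.18, adjusted p = 0.23; exact two-sided permutation p = 0.095). Without diabetic 2 the log2 fold change was 0.54 (adjusted p = 0.16). Without control 4 or diabetic 1, 3 or 4, Eomes lay under the filter and has only the unadjusted exact two-sided permutation test. The difference was 0.50 without control 4 (exact p = 0.029, the smallest value that 4 against 4 samples allow). It was 0.44 without diabetic 1 (exact p = 0.054), 0.31 without diabetic 3 and 0.30 without diabetic 4 (exact p = 0.27 for each).

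**Figure D2:**
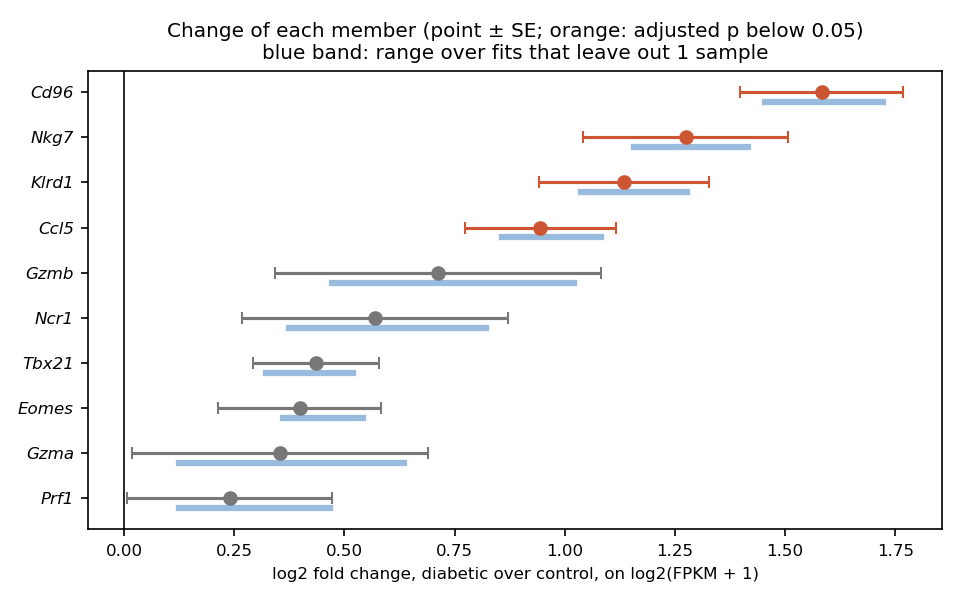
Log2 fold change of each member on log2(FPKM + 1), diabetic over control (horizontal axis), as points with the SE; orange points passed at an adjusted p below 0.05, and blue bands span the fits that left out 1 sample. The 4 members that passed lie at 0.94 to 1.58 and the other 6 at 0.24 to 0.71. The band of Eomes spans only 5 fits, as it lay under the filter in the others.

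Since T-box factors and Runx factors are known regulators of this gene group, the DNA just before the start sites was searched for their core motifs. RefSeq promoter windows (GRCm38.p6) were found for 8 of the 10 members; Klrd1 and Ccl5 were not matched. The T-box core AGGTGT, sought on both strands in the 250 bases before the start, was present for 3 of the 8, Nkg7, Prf1 and Gzma, and in 11.8% of 32851 windows of that length. The Runx core TGTGGT was present for 6 of the 8, all but Tbx21 and Eomes, and in 14.0% of windows. The 4 windows below, 5′ to 3′ on the gene's strand, are the 3 with a T-box core and that of Cd96, the member with the largest change; capitals mark both cores or their reverse complements. They lie at chr7:43436888-43437137 (Nkg7, plus), chr10:61297586-61297835 (Prf1, plus), chr13:113100982-113101231 (Gzma, minus) and chr16:46120249-46120498 (Cd96, minus).
Nkg7: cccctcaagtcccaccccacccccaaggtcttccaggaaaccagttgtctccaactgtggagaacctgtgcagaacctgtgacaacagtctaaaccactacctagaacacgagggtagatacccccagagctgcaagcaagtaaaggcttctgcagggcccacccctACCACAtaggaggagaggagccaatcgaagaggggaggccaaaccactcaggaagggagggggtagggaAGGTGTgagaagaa
Prf1: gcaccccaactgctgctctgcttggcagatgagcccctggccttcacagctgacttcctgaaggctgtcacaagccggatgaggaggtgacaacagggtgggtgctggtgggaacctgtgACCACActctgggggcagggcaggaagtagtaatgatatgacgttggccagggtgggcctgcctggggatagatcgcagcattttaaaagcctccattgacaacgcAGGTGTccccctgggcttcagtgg
Gzma: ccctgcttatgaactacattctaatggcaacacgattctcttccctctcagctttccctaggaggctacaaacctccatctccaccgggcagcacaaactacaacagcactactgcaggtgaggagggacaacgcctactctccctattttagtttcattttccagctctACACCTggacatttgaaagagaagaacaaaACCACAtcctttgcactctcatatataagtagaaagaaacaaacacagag
Cd96: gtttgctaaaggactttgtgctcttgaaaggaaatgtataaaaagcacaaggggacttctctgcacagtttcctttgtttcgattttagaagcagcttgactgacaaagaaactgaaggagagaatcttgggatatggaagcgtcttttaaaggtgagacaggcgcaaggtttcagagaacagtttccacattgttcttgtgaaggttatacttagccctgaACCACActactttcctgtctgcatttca
The T-box core began at base -14 in Nkg7, -24 in Prf1 and, on the other strand, -80 in Gzma, counted from the start site. Nkg7 rose and Prf1 and Gzma did not pass, and Cd96, with no T-box core in this window, rose. A match of letters describes the sequence and shows no binding.

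Read across the samples of both groups, 8 of the 10 members fell into a pair of patterns. The patterns were drawn from these same values, and their share among all tested genes was not counted. For Cd96, Nkg7 and Klrd1, diabetic 4 and 2 were the highest and diabetic 1 or 3 the lowest. For Gzma, Gzmb, Prf1, Ncr1 and Eomes, diabetic 2 was the lowest, and control 4 was the highest control sample, as it also was for Nkg7 and Klrd1. Ccl5 and Tbx21 were highest in diabetic 1 and were placed in neither. Ccl5 was also lowest in diabetic 2 among the diabetic samples, but its highest control sample was control 3. Relative to the control mean of log2(FPKM + 1), diabetic 2 lay at 1.57 for Nkg7 and 1.29 for Klrd1, yet at -0.49 for Gzma and -0.18 for Ncr1. In diabetic 3 the values were 0.85 for Nkg7, 1.11 for Klrd1, 1.04 for Gzma and 1.15 for Ncr1. The T cell genes were also highest in diabetic 2 and 4. Cd3e, a chain of the T cell receptor complex, lay 2.90 above its control mean in diabetic 2 and 1.24 in diabetic 3, and Cd8b1 lay 4.43 and 2.03 above. Over the 12 T cell markers the mean was 2.61 in diabetic 2, 2.47 in diabetic 4, 1.90 in diabetic 1 and 1.03 in diabetic 3. The order was not particular to T cell genes. Over the 6 B cell markers the mean was 1.09 in diabetic 4, 0.73 in diabetic 2, 0.63 in diabetic 1 and -0.11 in diabetic 3. Cd96 and Klrd1 were lowest in diabetic 1, whereas the T cell and B cell means were lowest in diabetic 3. The part of T cell RNA in the rise of Cd96, Nkg7 and Klrd1 was not tested.

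**Figure D3:**
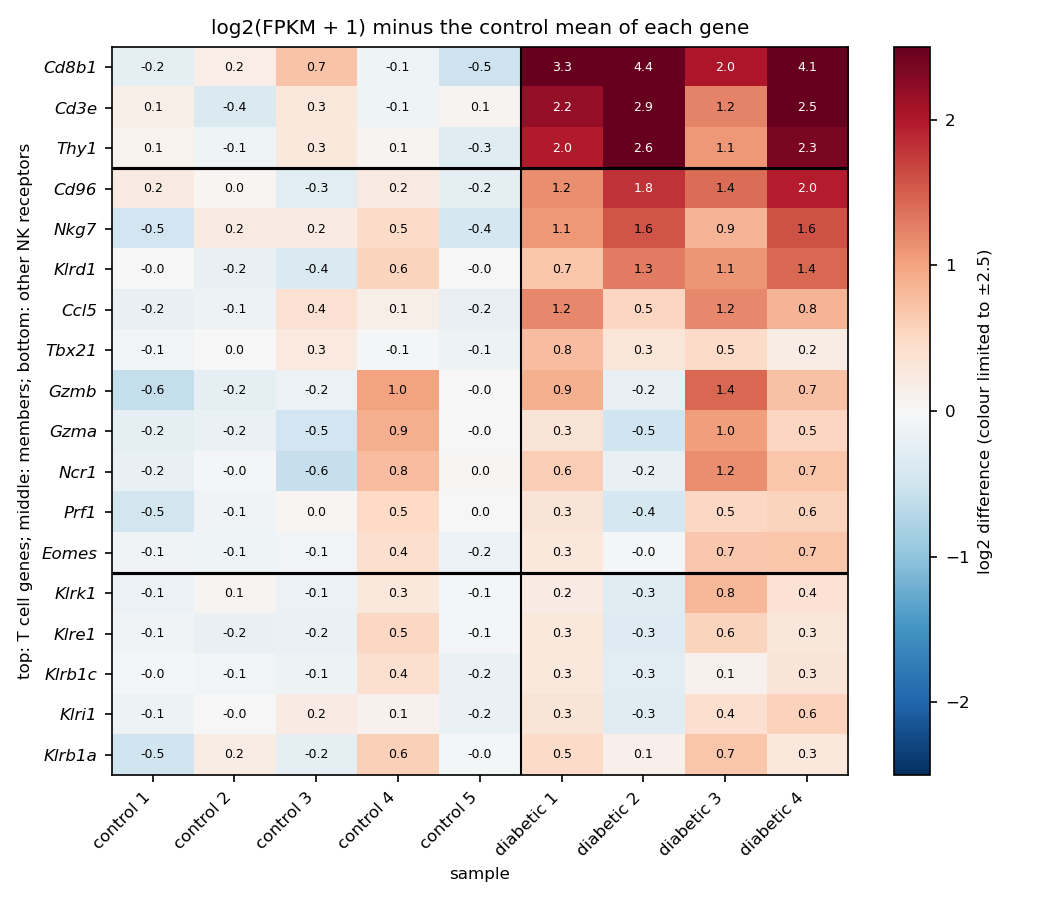
Log2(FPKM + 1) minus each gene's control mean (colour and printed number) in the 9 samples (columns) for T cell genes (top rows), the members (middle) and 5 of the 18 tested NK receptors, chosen after their values were seen (bottom). Cd96, Nkg7, Klrd1, Ccl5 and Tbx21 are positive in all 4 diabetic samples, as are the T cell genes and the receptor Klrb1a. Gzma, Gzmb, Ncr1, Prf1 and Eomes are positive in control 4 and below 0 in diabetic 2. Cd96, Nkg7, Klrd1 and Ccl5 are positive in control 4 too.

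The 18 tested NK receptors, adaptors and co-receptors did not share 1 order. Control 4 was the highest control sample for 6 of them, diabetic 2 the lowest diabetic sample for 8, and both held for 4. Diabetic 2 lay above the control mean for 9, by most for Cd247 (2.89) and Slamf6 (1.52), and below it for the other 9. The list's mean in diabetic 2 was 0.16 above control. Klrb1c, the gene of the NK1.1 antigen, had 1.67, 1.63, 1.54, 2.62 and 1.47 FPKM in control 1 to 5 and 2.30, 1.30, 1.98 and 2.47 FPKM in diabetic 1 to 4, with a log2 fold change of 0.11 (adjusted p = 0.73). Klrk1, the activating receptor NKG2D, had 1.59, 2.005, 1.59, 2.45 and 1.76 FPKM in control and 2.28, 1.32, 4.11 and 2.67 FPKM in diabetic samples (log2 fold change 0.27, adjusted p = 0.45). Klre1 had 0.626 to 1.66 FPKM in control and 0.488 to 1.75 FPKM in diabetic samples (log2 fold change 0.20, adjusted p = 0.60). In these 3, named after their values were seen, the highest control sample was control 4 and the lowest of the 9 samples was diabetic 2.

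The genes with the most similar profiles were then listed for each member. Likeness was taken as the root-mean-square difference of log2(FPKM + 1), centred on the control mean, over the 9 samples and among all tested genes with a usual symbol. For Nkg7 the nearest were Cd7, a T and NK cell surface protein (0.17), Car2 (0.22) and Pglyrp2 (0.27). For Cd96 they were Cd7 (0.25), Itm2a (0.25) and Ifit1bl1 (0.27), and for Klrd1 Ctsw (0.24), Rras2 (0.25) and Car2 (0.26). Gzma was nearest to Ncr1 (0.17), Skint3 (0.22) and Klre1 (0.25). Gzmb was nearest to Ncr1 (0.26), Gzma (0.31) and Irf7 (0.37), and Ncr1 to Gzma (0.17), Ifi205 (0.23) and Irf7 (0.25), of which Irf7 and Ifi205 are interferon-induced. The nearest genes to Prf1 were Ccnd1 (0.16), Klre1 (0.18) and Klri1 (0.20), and to Eomes Herc6 (0.12), Wdr92 (0.17) and Tdp2 (0.17). Tbx21 was nearest to Rnf157 (0.14), Tapbpl (0.14) and Irf8 (0.15). Ccl5 was nearest to Il2rb (0.18), Fam26f (0.21) and Nlrc5 (0.24), the last a transactivator of MHC class I genes.

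The order of levels per length also differed between the groups. By control mean it ran Ccl5, Gzma, Nkg7, Klrd1, Gzmb, Prf1, Ncr1, Tbx21, Cd96 and Eomes. Ccl5 exceeded Gzma, and Klrd1 exceeded Gzmb, in all 9 samples with ranges that did not overlap in either group. Gzma was above Nkg7 in 3 of 5 control samples and in 1 of 4 diabetic samples. Gzmb was above Prf1 in 1 of 5 control samples and in 4 of 4 diabetic samples, and their ranges overlapped in both groups. Cd96 was above Tbx21 in 2 of 5 control samples and in 4 of 4 diabetic samples.

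Other genes of the cytotoxic pathway were counted from lists. Of 13 tested genes for other granule contents, granule release and death ligands, 1 rose and 0 fell (median log2 fold change -0.0049). It was Ctsw, cathepsin W, a protease of NK and CD8 T cells, which averaged 6.005 ± 1.90 FPKM in the 5 control and 16.5 ± 2.31 FPKM in the 4 diabetic samples (SD), with a log2 fold change of 1.35 (adjusted p = 0.0054). Gzmk had a log2 fold change of 0.31 (adjusted p = 0.62). Fasl, the death ligand, lay under the filter at 0.325 to 0.809 FPKM in control and 0.805 to 1.30 FPKM in diabetic samples. Of 18 tested NK receptors, adaptors and co-receptors, 2 rose and 0 fell (median 0.20). These were Cd247, the signalling zeta chain shared by the T cell receptor and NK receptors, with a log2 fold change of 2.04 (adjusted p = 0.013), and Slamf6, also of T, NK and B cells, with 1.13 (adjusted p = 0.022). Cd247 did not pass without diabetic 4 (adjusted p = 0.056). Slamf6 did not pass without control 3 or without diabetic 1, 2 or 4 (log2 fold change 1.14, 1.12, 0.996 and 0.988). The list's summed level was 2903 to 5323 FPKM in control and 2308 to 3535 FPKM in diabetic samples, most of it from the adaptors Tyrobp and Fcer1g and the receptor Fcgr3, which macrophages express too.

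Transcription factors and the cytokine receptors that feed them came next. Of 18 tested, 4 rose and 0 fell (median 0.40). Il2rb, the beta chain of the IL-2 and IL-15 receptors, averaged 7.78 ± 1.38 FPKM in the 5 control and 15.6 ± 2.72 FPKM in the 4 diabetic samples (SD), with a log2 fold change of 0.92 (adjusted p = 0.0097). Il18r1, an IL-18 receptor chain, rose from 1.28 ± 0.242 to 3.36 ± 0.954 FPKM (adjusted p = 0.011). Stat4, which relays IL-12 signals, rose with a log2 fold change of 0.93 (adjusted p = 0.018) and Il2rg, the common gamma chain, with 0.52 (adjusted p = 0.027). Stat4 did not pass without diabetic 2 or diabetic 4 (log2 fold change 0.90 and 0.84), nor Il2rg without control 3, diabetic 2 or diabetic 4 (0.52, 0.50 and 0.49). Of 9 tested effector cytokines and homing receptors, 2 rose and 0 fell (median 0.17). Cxcr3, a receptor of effector T and NK cells for interferon-induced chemokines, averaged 3.32 ± 0.481 FPKM in the 5 control and 6.24 ± 0.288 FPKM in the 4 diabetic samples (SD), with a log2 fold change of 0.75 (adjusted p = 0.0055). Cxcr6 also had 0.75 (adjusted p = 0.045), but when 1 sample was left out it passed only without control 1 or diabetic 3. Xcl1, a chemokine of NK and CD8 T cells, had a log2 fold change of 0.37 (adjusted p = 0.57). Ifng lay under the filter, with 24 reads in all control and 24 in all diabetic libraries. Of 6 tested ligands of the member receptors and receptors of Ccl5, 0 rose and 0 fell; besides Ccr3, Nectin1 had a log2 fold change of -0.42 (adjusted p = 0.14) and Pvr, the CD155 ligand of Cd96, 0.07.

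Markers of other cell types were counted in the same fit. T cell markers had a median log2 fold change of 2.12, with Cd3e, Thy1, Cd3g and Cd8b1 at 2.21, 1.996, 2.33 and 3.48 (adjusted p = 0.0055 for each). Cd2 was the only one of the 12 that did not pass. Of 8 naive T cell markers 5 rose (median 1.65), led by Dapl1, Ccr7, Lef1 and Tcf7 at 3.60, 1.95, 2.12 and 2.48. Of 3 tested markers of innate-like T cells and innate lymphoid cells, 2 rose: Icos, an activated T cell co-stimulator, at 0.72 (adjusted p = 0.012) and Trdc, the delta chain of the gamma-delta T cell receptor, at 0.94 (adjusted p = 0.016; 0.051 without diabetic 2). The third, Il1rl1, the IL-33 receptor of innate lymphoid cells and mast cells, had a log2 fold change of -1.04 (SE 0.27, adjusted p = 0.056), and Zbtb16, a factor of innate-like T cells that lay under the filter, had 272 reads in all control and 81 in all diabetic libraries. Lef1 and Icos passed the filter on low values through the diabetic samples alone. None of 6 B cell markers passed (median 0.55; Pax5 1.01), and their summed level was 455 to 1007 FPKM in control and 606 to 1426 FPKM in diabetic samples. None of 6 tested macrophage markers passed (median -0.22; Cd14 -0.30 and Csf1r -0.32; summed level 1932 to 2639 against 1519 to 2601 FPKM). Nor did 6 mast cell markers, cells that can hold Gzmb (median -0.56, Tpsb2 -1.62 and Cpa3 -0.83). The 5 neutrophil markers did not pass either (median -0.18). Retnlg was at -0.98, Cxcr2 at -0.42, Mmp8 at -0.18, S100a8 at 0.12 (SE 0.90) and S100a9 at 0.0011 (SE 1.04). The 2 plasmacytoid dendritic cell markers also did not pass (Cox6a2 -0.43 and Tcf4 0.08, the latter negative in 2 alternatives). The summed mast cell level was 283 to 702 FPKM in control, highest in control 4, and 112 to 378 FPKM in diabetic samples, lowest in diabetic 2. It was 149 FPKM in diabetic 3, where Gzma, Gzmb and Ncr1 were at their highest. The part of mast cell RNA in the values of Gzmb was not tested.

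**Figure D4:**
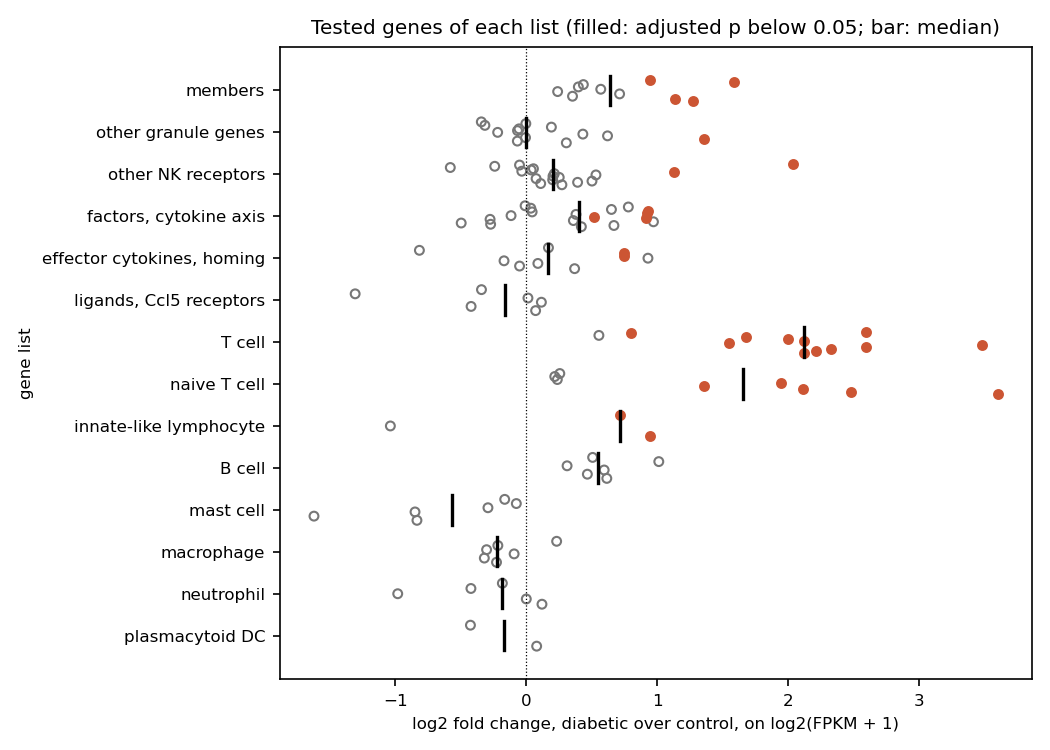
Log2 fold change (horizontal axis) of every tested gene in each list (rows), filled where the adjusted p was below 0.05, with a bar at the list's median. T cell and naive T cell markers lie to the right (medians 2.12 and 1.65), the members lie between (0.64), and the other NK receptors lie near 0.20.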

How the data were processed

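RNA sequencing of 9 samples (5 control, 4 diabetic) was analysed from 1 table of 41096 genes. Per the labels' protocols, a SMARTER messenger RNA kit was used; the aligner, counter and strand setting are not given in sources used here. GRCm38 and mm10 are named in the submitters' processing notes, but the gene identifiers belong to the C57BL/6NJ gene set, so gene positions are printed as the table gives them with no build named, and only promoter windows carry GRCm38.p6 positions. The authors deposited FPKM values. Multiplied by gene length and divided by 1 step per sample, they gave whole reads (100% within 0.05 of a whole number), which are the reads quoted. All 9 columns were matched by title and 0 columns of sample values stayed unmatched; no pair of samples was identical.

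Diabetic and control samples were compared by limma 3.58.1 under R 4.3.3 (lmFit, eBayes with trend and robust) on log2(FPKM + 1), over genes reaching an FPKM of 1 in 4 or more samples, with group as the only factor; tests were two-sided with Benjamini-Hochberg adjustment over all tested genes. The fit was tested on simulated reads with known changes. These had the same setting of spread for every gene and no library apart from the rest. The simulation therefore does not cover the single-library effects described here. Members under the filter were to get an exact permutation test; since none lay under it, the test is given for members as a description. The alternatives were a pseudocount of 0.1, no filter, a mean FPKM of at least 0.2, a replicate block, plain eBayes, array weights, scaling per total of reads, and leaving out each sample. Limma with voom weights on the recovered reads was added after the data were seen.

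Named genes are the 10 members, up to 4 passing genes of each list by p (up to 2 where none passed) and the 3 genes nearest to each member in profile; any other gene is named after its values were seen, and some list genes are not reported here. The members and lists were chosen with earlier results of these data known. No member overlapped another gene of the table in position. Reads that are PCR copies are not separate molecules.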

Additional observations from a re-analysis of the deposited data

Results flagged for a closer look

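Among the members and list genes named by p, 82 groups of 4 or 5 values were checked for a sample far from the rest. Genes named only for a near profile, or only after their values were seen, were not checked. The measure was the gap to the nearest neighbour over the group's range (limits 0.829 for 4 and 0.710 for 5 samples). In all, 4 groups were flagged, where chance flags about 1 in 20 groups. Of these, 3 are members in the same library, control 4. There Gzma stood at 37.0 FPKM with the next control sample at 19.2 FPKM, Gzmb at 6.78 FPKM with the next at 2.85 FPKM, and Eomes at 1.32 FPKM with the next at 0.674 FPKM. Cxcr3 in diabetic 3 was 5.81 FPKM, below the next diabetic value of 6.32 FPKM. The members share cells and a library, so these flags are not independent.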

How the results depend on the processing

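Over the 17 alternatives all 10 members kept a positive log2 fold change wherever they were tested. The number of members that changed was 4 in the main analysis; it was 3 with the replicate block (Ccl5 adjusted p = 0.061), 5 with array weights (Tbx21 adjusted p = 0.039) and 2 to 4 when 1 sample was left out, the lowest without diabetic 2. Genes changed in all numbered 533, and 183 with no filter, 73 with the replicate block, 1304 with array weights and 115 to 1126 when 1 sample was left out (lowest without diabetic 4, highest without diabetic 3); voom on recovered reads, an alternative added after seeing the data, gave 660. The replicate block used numbers 1 to 4 and drops control 5. Deviations of same-numbered samples from their group means had correlations across genes of 0.02, 0.16, -0.26 and -0.18. Of 4 control samples, 1 correlated best with its own number. So few pairs cannot show whether the numbers mark a pairing. Besides Ccl5, 17 of the 19 passing list genes named above did not pass with the block (adjusted p = 0.051 to 0.12). The T cell and naive T cell genes were among them. Ctsw and Il18r1 did pass, and 0 changed sign. The number of members under the filter was 0 in the main analysis and 0 to 1 when 1 sample was left out, the 1 being Eomes without control 4, diabetic 1, diabetic 3 or diabetic 4 (exact two-sided permutation p = 0.029, 0.054, 0.27 and 0.27). The log2 fold change of Tcf4, 0.08, was -0.049 with array weights and -0.033 without control 2. Depth limits the low members, Ncr1 most, at 13 to 95 reads per sample. The planned count test (edgeR) on recovered reads was not run, because the deposited unit is FPKM. The cause of these changes was not tested.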
